A study of Mus musculus with 9 samples.

Results

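The airway surface is kept moist by epithelial transporters that secrete anions and absorb sodium, and 9 genes of that machinery were followed in the lungs of ovalbumin-challenged DJ-1 knockout mice. They were Slc26a4, which encodes the anion exchanger pendrin, Slc26a9, Cftr, Ano1, the epithelial sodium channel genes Scnn1a, Scnn1b and Scnn1g, Slc12a2 and Atp12a. The 9 were taken by gene symbol from a table of 55851 genes. A single gene identifier carried each symbol.

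RNA was sequenced from lung cells, with 3 libraries in each of 3 groups, and the mice were female C57BL/6J. DJ-1 KO OVA (libraries KO_263, KO_266 and KO_267, after their labels) came from DJ-1 knockout mice challenged with ovalbumin, an egg protein used to provoke allergic airway inflammation. WT OVA (libraries 5, 6 and 9) came from wild-type mice challenged with ovalbumin, and WT PBS (libraries 1, 2 and 3) from wild-type mice given phosphate-buffered saline. The time label was 7 weeks in each library, without saying from when it was counted. How the DJ-1 allele was made, and whether a library holds 1 animal or a pool, the labels do not say. There was no knockout group given saline, so the knockout's effect in saline-challenged lung was not measured.

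Pendrin exchanges chloride for bicarbonate, thiocyanate or iodide across the apical membrane of airway cells, and is a known target of the cytokines IL-13 and IL-17 in airway epithelium. SLC26A9, CFTR and the calcium-activated channel ANO1 carry chloride out of the cell, while the sodium channel ENaC, built from an alpha, a beta and a gamma subunit, takes sodium up and draws water with it. NKCC1, the product of Slc12a2, loads chloride into the cell from the blood side, and the non-gastric proton pump ATP12A acidifies airway liquid in humans but is scarce in mouse airways.

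Levels are FPKM, a read density corrected for gene length and library size, so they can be set side by side between genes. Differences are between group means of log2(FPKM + 0.5), which understates the change of low genes. They come from a limma fit over the 17716 genes with a mean of at least 0.2 FPKM, with p-values adjusted over those genes by Benjamini-Hochberg and called below 0.05. The libraries held 20812192 to 29080130 reads. Park7, the gene for DJ-1, averaged 5.08 ± 1.92 FPKM in DJ-1 KO OVA, against 57.2 ± 3.78 in WT OVA and 46.7 ± 8.91 in WT PBS (SD, n = 3 each), which fits the labels. Lung markers were high in all 9 libraries: the surfactant gene Sftpc was at 5089 to 11646 FPKM in DJ-1 KO OVA, 30215 to 38446 in WT OVA and 22975 to 39155 in WT PBS. The deposited values are scaled on the median gene. Scaling the libraries to equal FPKM sums instead moved the median of all tested genes by 0.46 (log2) between DJ-1 KO OVA and WT OVA.

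Pendrin was the member that set the DJ-1 KO OVA lungs apart. Slc26a4 (ENSMUSG00000020651, chromosome 12, 31519827 to 31559969, minus strand, GRCm38.p6) was at 62.9, 60.1 and 53.5 FPKM in DJ-1 KO OVA libraries KO_263, KO_266 and KO_267. It was at 7.94, 1.32 and 5.48 FPKM in WT OVA libraries 5, 6 and 9, and at 1.02, 1.38 and 2.42 FPKM in WT PBS libraries 1, 2 and 3. The 3 knockout libraries lay close together and far above the other 6, while WT OVA library 6 sat within the WT PBS range. These levels rested on 6733, 4416 and 4069 reads in DJ-1 KO OVA, on 474, 94 and 335 in WT OVA and on 68, 88 and 231 in WT PBS.

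Slc26a4 averaged 58.9 ± 4.84 FPKM in DJ-1 KO OVA, against 4.91 ± 3.35 FPKM in WT OVA (SD, n = 3 each). It rose by 3.71 on the log2 scale (standard error 0.47, 95% interval 2.66 to 4.77), a 13.1-fold difference with an adjusted p of 0.00327 by limma. That was the 9th largest rise among the 17716 genes. Against the 1.61 ± 0.724 FPKM of WT PBS the rise was 4.87 on the log2 scale, or 29.2-fold, with an adjusted p of 0.000576. Both rises passed in all 15 alternative settings tried, with differences of 3.06 to 4.29 against WT OVA and 4.55 to 5.23 against WT PBS. In bulk RNA, more cells that express a gene and more RNA per such cell cannot be told apart.

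Ovalbumin in wild-type lung gave a smaller and uneven Slc26a4 difference that did not pass. WT OVA was 1.15 above WT PBS on the log2 scale, with a 95% interval of 0.10 to 2.20, an unadjusted p of 0.0344 and an adjusted p of 0.729 by limma. Without WT OVA library 6, the difference was 1.81. The WT OVA and WT PBS values overlapped, since library 6 at 1.32 FPKM lay below 2 of the 3 WT PBS libraries.

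The 250 bases before the start of Slc26a4 are printed because it is the member with the largest difference, beside those of Ano1, the other member that rose, and of Slc26a9, the other member with the same core motif. They are RefSeq sequences of GRCm38.p6 and lie at chr12:31559985-31560234 on the minus strand, chr7:144738574-144738823 on the minus strand and chr1:131743772-131744021 on the plus strand. Capitals mark the TATA box, TATAAA, on either strand.
Slc26a4: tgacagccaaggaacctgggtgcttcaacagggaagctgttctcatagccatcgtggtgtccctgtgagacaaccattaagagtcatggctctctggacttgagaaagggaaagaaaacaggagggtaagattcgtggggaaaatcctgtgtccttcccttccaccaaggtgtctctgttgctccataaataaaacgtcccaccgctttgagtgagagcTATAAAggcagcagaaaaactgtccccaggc
Ano1: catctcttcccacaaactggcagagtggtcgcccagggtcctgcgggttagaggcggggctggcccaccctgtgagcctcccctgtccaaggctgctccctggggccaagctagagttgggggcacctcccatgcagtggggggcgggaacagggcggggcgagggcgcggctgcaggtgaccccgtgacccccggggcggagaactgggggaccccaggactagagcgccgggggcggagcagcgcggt
Slc26a9: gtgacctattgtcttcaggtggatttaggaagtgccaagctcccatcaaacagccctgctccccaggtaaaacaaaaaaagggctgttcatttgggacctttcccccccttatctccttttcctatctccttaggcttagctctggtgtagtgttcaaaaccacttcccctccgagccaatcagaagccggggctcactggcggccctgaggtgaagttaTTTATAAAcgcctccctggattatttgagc

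Windows of 300 bases, from 250 before to 50 after the start, were searched for 6 of the 9 members. Slc26a4 had TATAAA from 31 to 26 bases before its start. Slc26a9 had overlapping matches on both strands between 30 and 23 bases before its start. Ano1, Cftr, Scnn1b and Scnn1g had none, and 13.6% of 32851 mouse promoter windows hold these letters. The STAT6 motif, TTC and GAA with any 4 bases between them, is read by a transcription factor downstream of IL-4 and IL-13. It was in none of the 6 windows and in 6.95% of all windows. GC content was 50.0% for Slc26a4 and 52.0% for Slc26a9, close to the median of 52.7%, against 61.7% for Scnn1b, 64.7% for Scnn1g, 71.3% for Cftr and 71.7% for Ano1. The Ano1 window lies inside the gene's span in the deposited table, which starts further upstream.

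The 2 genes that flank Slc26a4 on chromosome 12 were not called. Cbll1 had a log2 difference of 0.45 in DJ-1 KO OVA against WT OVA (adjusted p = 0.265) and Bcap29 of -0.01 (adjusted p = 0.985). No annotated gene overlaps Slc26a4, so its reads have no overlapping gene to be confused with.

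Slc26a9 (ENSMUSG00000042268, chromosome 1, 131744022 to 131771504), the pendrin relative that conducts chloride constitutively, did not share the rise. It was at 5.33, 2.52 and 2.48 FPKM in DJ-1 KO OVA, at 3.99, 5.85 and 2.77 in WT OVA and at 5.39, 5.79 and 8.26 in WT PBS. The DJ-1 KO OVA and WT OVA values overlapped, whereas each DJ-1 KO OVA value was below each WT PBS value, narrowly in library KO_263. The difference was -0.28 against WT OVA (95% interval -0.99 to 0.43, adjusted p = 0.561) and -0.88 against WT PBS (95% interval -1.59 to -0.17, adjusted p = 0.118) by limma. Without DJ-1 KO OVA library KO_263 the second difference was -1.20 and passed, with an adjusted p of 0.040. In WT OVA against WT PBS it was -0.60 (95% interval -1.31 to 0.11, adjusted p = 0.729).

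Ano1 (ENSMUSG00000031075, chromosome 7, 144588549 to 144751974), the calcium-activated chloride channel of secretory epithelium and smooth muscle, was the second member to rise. It was at 9.92, 5.20 and 7.97 FPKM in DJ-1 KO OVA, at 3.35, 3.74 and 2.78 in WT OVA and at 1.73, 1.85 and 3.84 in WT PBS. Each DJ-1 KO OVA library was above the 6 wild-type libraries. Ano1 averaged 7.70 ± 2.37 FPKM in DJ-1 KO OVA and 3.29 ± 0.482 FPKM in WT OVA (SD, n = 3 each), a rise of 1.08 on the log2 scale (95% interval 0.41 to 1.74), or 2.11-fold, with an adjusted p of 0.041 by limma.

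That Ano1 call was close to the threshold. It held in 8 of 15 alternatives and was lost without DJ-1 KO OVA library KO_263 (adjusted p = 0.12) or KO_267 (0.14), and without WT OVA library 5 (0.10), 6 (0.083) or 9 (0.13), with differences of 0.88 to 1.32 across the libraries left out. It was also lost with no filter on low values (0.097) and in the fit of 2 groups (0.0501). Against the 2.47 ± 1.19 FPKM of WT PBS, Ano1 rose by 1.49, or 2.81-fold, with an adjusted p of 0.0159, lost without DJ-1 KO OVA library KO_267 (0.065) or WT PBS library 1 or 2 (0.070 each), and with no filter on low values (0.052). WT OVA and WT PBS overlapped, with a difference of 0.41 (95% interval -0.25 to 1.08, adjusted p = 0.734). Ano1 also marks smooth muscle and interstitial cells. None of 8 tested markers of those cells was called in DJ-1 KO OVA against WT OVA, where 14.2% of all genes were called. The summed level of the 8 was 23.4 to 34.8 FPKM in DJ-1 KO OVA, 21.0 to 25.7 in WT OVA and 30.7 to 34.0 in WT PBS. With equal FPKM sums 4 of the 8 rose, where 4432 of 17716 genes rose and 602 fell. Hhip, one of these 4, averaged 2.47 FPKM in DJ-1 KO OVA and 1.18 FPKM in WT OVA (log2 difference 0.73, adjusted p = 0.116). It was called with equal FPKM sums (0.044) and without library KO_266 (0.0077), where 5694 genes were called in all. In the main fit 4 of the 8 markers had positive and 4 negative differences, with a median of 0.02. The part of these cells in the Ano1 difference was not tested.

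Cftr (ENSMUSG00000041301, chromosome 6, 18170687 to 18322768), the cAMP-regulated channel lost in cystic fibrosis, was low throughout. It was at 1.81, 0.916 and 1.18 FPKM in DJ-1 KO OVA, at 1.03, 1.65 and 0.995 in WT OVA and at 0.766, 1.59 and 0.876 in WT PBS, and the 3 groups overlapped. Its difference was 0.05 in DJ-1 KO OVA against WT OVA (95% interval -0.54 to 0.65, adjusted p = 0.902), 0.20 against WT PBS (95% interval -0.39 to 0.79, adjusted p = 0.665) and 0.14 in WT OVA against WT PBS (95% interval -0.45 to 0.74, adjusted p = 0.894) by limma. No change of Cftr was detectable with 3 libraries a group, and the intervals do not show that it was equal. Slc26a4 stood at 34.8, 65.7 and 45.2 times the Cftr level in DJ-1 KO OVA, at 7.74, 0.799 and 5.50 times in WT OVA and at 1.34, 0.865 and 2.76 times in WT PBS.

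**Figure D1:**
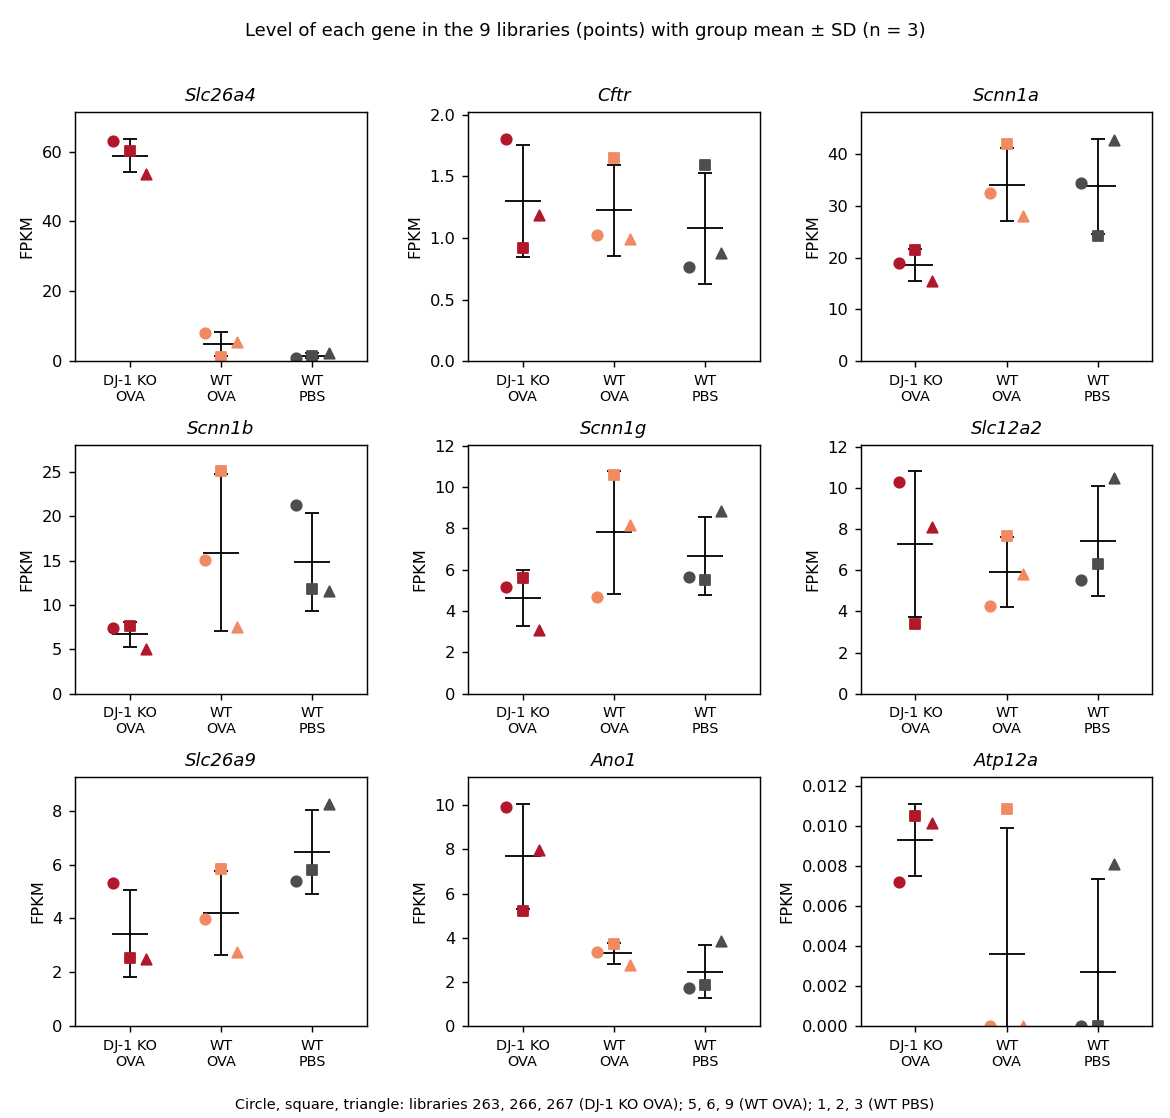
FPKM of each of the 9 genes in the 3 libraries of DJ-1 KO OVA, WT OVA and WT PBS (points), with the group mean and SD (bars, n = 3); each panel has its own linear axis from 0. Slc26a4 is at 53.5 to 62.9 FPKM in DJ-1 KO OVA and at most 7.94 FPKM elsewhere, and Scnn1a is lower in the DJ-1 KO OVA libraries than in the other 6.

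The 3 sodium channel genes had negative differences between DJ-1 KO OVA and WT OVA, of which that of Scnn1a passed. Scnn1a (ENSMUSG00000030340, chromosome 6, 125320659 to 125344943), the pore-forming alpha subunit, was at 19.0, 21.5 and 15.4 FPKM in DJ-1 KO OVA, at 32.4, 41.8 and 28.0 in WT OVA and at 34.4, 24.2 and 42.6 in WT PBS. Each DJ-1 KO OVA library was below the 6 wild-type libraries. Scnn1a averaged 18.6 ± 3.09 FPKM in DJ-1 KO OVA and 34.1 ± 7.08 FPKM in WT OVA (SD, n = 3 each) and fell by 0.85 on the log2 scale (95% interval -1.40 to -0.29), or 1.80-fold, with an adjusted p of 0.0491 by limma. Against WT PBS the difference was -0.82 (95% interval -1.37 to -0.26) with an adjusted p of 0.073.

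The Scnn1a fall held its sign in all 15 alternatives and passed in 5 of them. It was lost without DJ-1 KO OVA library KO_263 (adjusted p = 0.095) or KO_267 (0.17), and without WT OVA library 5 (0.12), 6 (0.14) or 9 (0.088). With equal FPKM sums the difference was -0.24 and the adjusted p 0.57.

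Scnn1b (ENSMUSG00000030873, chromosome 7, 121865038 to 121918514), the beta subunit, was at 7.36, 7.67 and 5.09 FPKM in DJ-1 KO OVA, at 15.1, 25.1 and 7.51 in WT OVA and at 21.2, 11.8 and 11.6 in WT PBS. WT OVA library 9, at 7.51 FPKM, lay between the knockout values, while each WT PBS library was above them. The difference was -1.05 against WT OVA (95% interval -1.92 to -0.18, adjusted p = 0.0879) and -1.06 against WT PBS (95% interval -1.93 to -0.19, adjusted p = 0.122) by limma. Cog7 overlaps Scnn1b on the opposite strand, and the labels do not say whether counting used strand. Cog7 itself had a difference of 0.50 (adjusted p = 0.171) in DJ-1 KO OVA against WT OVA.

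Scnn1g (ENSMUSG00000000216, chromosome 7, 121734479 to 121768475), the gamma subunit and the neighbour of Scnn1b, was at 5.16, 5.61 and 3.09 FPKM in DJ-1 KO OVA, at 4.67, 10.6 and 8.16 in WT OVA and at 5.63, 5.49 and 8.82 in WT PBS. The groups overlapped. Its difference was -0.67 against WT OVA (95% interval -1.37 to 0.04, adjusted p = 0.161) and -0.49 against WT PBS (95% interval -1.19 to 0.22, adjusted p = 0.352) by limma. The 3 subunits had a negative difference in DJ-1 KO OVA against WT OVA in all 15 alternatives, and Scnn1b and Scnn1g passed in none. In WT OVA against WT PBS the differences were 0.03 for Scnn1a, -0.01 for Scnn1b and 0.18 for Scnn1g, with adjusted p-values of 0.980, 0.999 and 0.888 by limma, and WT OVA library 6 was the highest WT OVA library for each of the 3.

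Slc12a2 (ENSMUSG00000024597), the basolateral chloride loader NKCC1, varied as much within groups as between them. It was at 10.3, 3.39 and 8.13 FPKM in DJ-1 KO OVA, at 4.28, 7.68 and 5.81 in WT OVA and at 5.50, 6.30 and 10.5 in WT PBS, and the DJ-1 KO OVA libraries held both the lowest and nearly the highest of the 9 values. Its difference was 0.18 against WT OVA (95% interval -0.66 to 1.03, adjusted p = 0.753), -0.10 against WT PBS (95% interval -0.95 to 0.74, adjusted p = 0.886) and -0.29 in WT OVA against WT PBS (95% interval -1.13 to 0.56, adjusted p = 0.845) by limma.

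Atp12a (ENSMUSG00000022229, chromosome 14, 56365068 to 56388550) was not detectable beyond single reads. It had 1 read in each DJ-1 KO OVA library, 1 read in WT OVA library 6 and 0 in the other two, and 1 read in WT PBS library 3 and 0 in the other two. It did not reach the minimum mean of 0.2 FPKM, so it was not tested and has no fold change.

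In DJ-1 KO OVA against WT OVA, 3 of the 8 tested members were called, where the background was 14.2% of all tested genes. Slc26a4 and Ano1 rose, where 5.93% of genes rose, and Scnn1a fell, where 8.24% fell. The groups did not overlap in 3 of the 8, beside 37.2% of all genes. Of those 3, 2 were higher, beside 18.4% of all genes, and 1 was lower, beside 18.8%. At an unadjusted p below 0.05 stood 4 members, beside 35.2% of all genes, and the median difference of the 8 was -0.11 against 0 over all genes. In DJ-1 KO OVA against WT PBS, 2 of 8 were called, beside 8.54% of all genes. Both rose, where 4.07% of genes rose, and none fell, where 4.47% fell. There 5 of the 8 had groups that did not overlap, beside 25.6% of all genes, with 2 higher, beside 12.7%, and 3 lower, beside 12.9%. At an unadjusted p below 0.05 stood 5 members, beside 26.4% of all genes. In WT OVA against WT PBS, limma called 0 of 8 and 0.00564% of all genes, which is a single gene, and limma-voom on the reads called no gene. At an unadjusted p below 0.05 there was 1 member, Slc26a4, beside 6.47% of all genes, and no member had groups that did not overlap, beside 14.8% of all genes, 7.25% higher and 7.52% lower. The 2 comparisons of DJ-1 KO OVA share its libraries and are not independent.

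**Figure D2:**
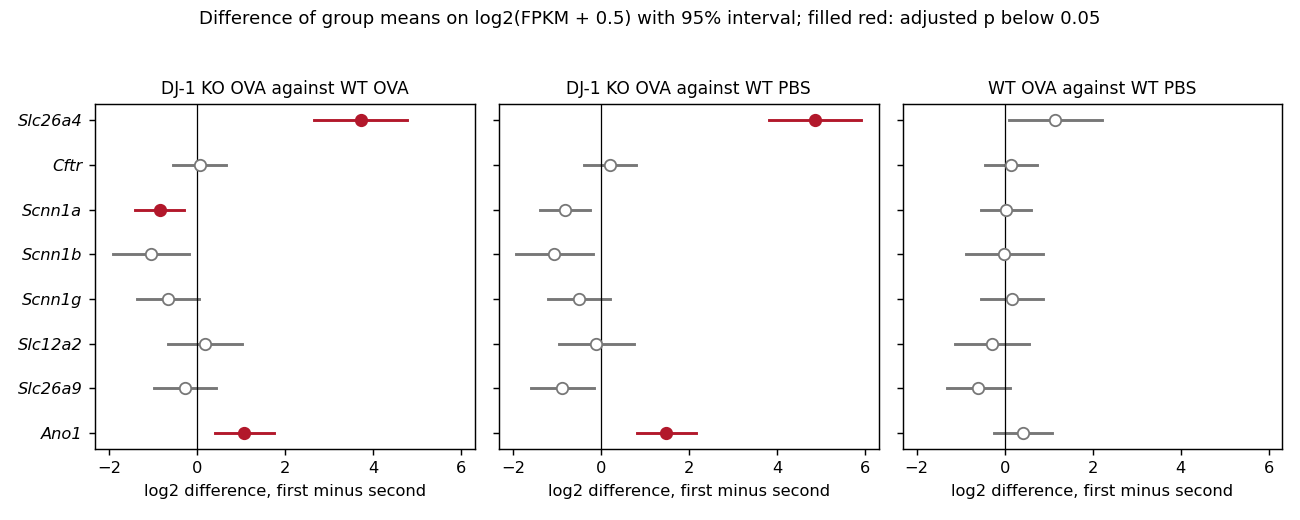
Difference of group means on log2(FPKM + 0.5) (points) with its 95% interval (lines) for the 8 tested genes in each comparison, the first-named group minus the second; filled red points passed an adjusted p of 0.05. The Slc26a4 interval in DJ-1 KO OVA against WT OVA, 2.66 to 4.77, lies above those of the other 7 genes.

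The order of the members within a library differed between the groups. Slc26a4 ranked highest of the 9 in each DJ-1 KO OVA library, and ranked 3, 8 and 5 in WT OVA libraries 5, 6 and 9 and 7, 8 and 7 in WT PBS libraries 1, 2 and 3. It made up 51.6%, 56.2% and 55.3% of the members' summed FPKM in DJ-1 KO OVA, against 10.9%, 1.35% and 8.91% in WT OVA and 1.35%, 2.36% and 2.72% in WT PBS. The 3 sodium channel genes made up 25.9%, 32.5% and 24.3% in DJ-1 KO OVA, against 71.7%, 79.3% and 71.0% in WT OVA and 81.0%, 71.1% and 70.9% in WT PBS. Slc26a4 is in the denominator of these shares. Without it the sodium channel genes made up 53.5%, 74.3% and 54.4% in DJ-1 KO OVA, against 80.5%, 80.4% and 77.9% in WT OVA and 82.1%, 72.8% and 72.9% in WT PBS, so that KO_266 lay within the WT PBS range. The summed level of the 9 members was 96.8 to 122 FPKM in DJ-1 KO OVA, 61.5 to 97.8 in WT OVA and 58.4 to 88.9 in WT PBS.

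The ratio of the 4 apical anion carriers, Slc26a4, Cftr, Slc26a9 and Ano1, to the 3 sodium channel genes does not depend on the scaling between libraries. It was 2.54, 1.98 and 2.76 in DJ-1 KO OVA, against 0.312, 0.162 and 0.276 in WT OVA and 0.145, 0.256 and 0.244 in WT PBS. Without Slc26a4 the ratio was 0.541, 0.248 and 0.494 in DJ-1 KO OVA, against 0.160, 0.145 and 0.150 in WT OVA and 0.129, 0.222 and 0.206 in WT PBS. On either reckoning the DJ-1 KO OVA ratios lay above those of the 6 wild-type libraries, narrowly in library KO_266 for the second. The ratio was taken after the values of its genes were known, so it has no test.

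**Figure D3:**
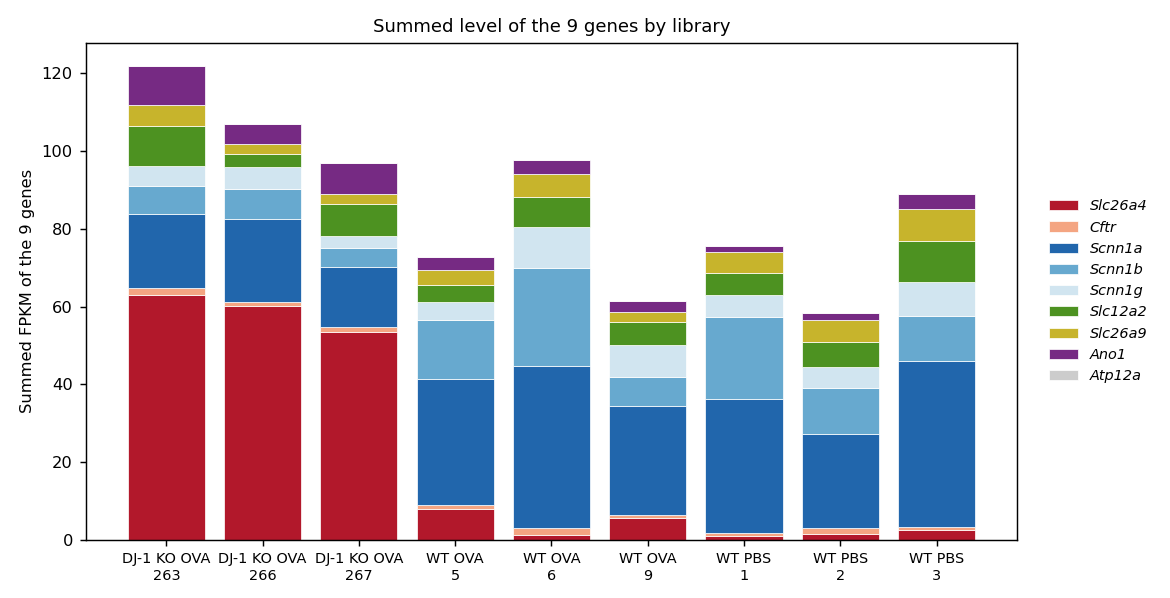
Summed FPKM of the 9 genes in each library, stacked by gene, DJ-1 KO OVA libraries left of WT OVA and WT PBS. Slc26a4 fills 51.6% to 56.2% of the DJ-1 KO OVA bars and at most 10.9% of the others, where the 3 sodium channel genes fill 70.9% to 81.0%.

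Markers of epithelial cells were read beside these levels, since the genes are epithelial. The 12 pan-epithelial markers summed to 387 to 429 FPKM in DJ-1 KO OVA, 476 to 867 in WT OVA and 389 to 622 in WT PBS. Between DJ-1 KO OVA and WT OVA, 1 of the 12 rose and 2 fell, where 5.93% of all genes rose and 8.24% fell. With equal FPKM sums 1 rose and none fell, where 4432 of 17716 genes rose and 602 fell. Set against the mean log2 level of these 12 in the same library, the Slc26a4 difference between DJ-1 KO OVA and WT OVA was 4.19. That of Ano1 was 1.56 and that of Scnn1a -0.37, which was -0.85 in the main fit. For these 3 of the 8 tested members the groups did not overlap. On the levels themselves 37.2% of all genes did not overlap, and the share on this measure was not computed. The Scnn1a separation was narrow, with a highest value of 0.373 in DJ-1 KO OVA and a lowest of 0.377 in WT OVA. For Scnn1b the difference was -0.57 and for Scnn1g -0.19, with groups that overlapped. Markers of alveolar type 2, club and ciliated cells were lower in DJ-1 KO OVA than in WT OVA in summed level. Alveolar type 2 markers summed to 6655 to 14200 FPKM in DJ-1 KO OVA, 33017 to 42137 in WT OVA and 25605 to 42514 in WT PBS. Club cell markers summed to 26293 to 35575 FPKM in DJ-1 KO OVA, 37165 to 113467 in WT OVA and 24467 to 66070 in WT PBS, and ciliated cell markers to 149 to 265 FPKM in DJ-1 KO OVA, 375 to 494 in WT OVA and 256 to 386 in WT PBS. Beside 8.24% of all genes, 2 of 10 alveolar type 2, 2 of 9 club and 1 of 11 ciliated markers tested fell. None of these markers rose. Their median log2 differences were -0.77, -1.13 and -0.37, and with equal FPKM sums -0.16, -0.51 and 0.0048, so that the ciliated median changed sign. The part of these cell types in the sodium channel differences was not tested. Leukocyte markers, 10 genes of which 1 rose and 4 fell, summed to 1061 to 2712 FPKM in DJ-1 KO OVA, 5619 to 8493 in WT OVA and 4483 to 9606 in WT PBS. With 1 library left out 0 to 2 rose and 1 to 5 fell. Their median log2 difference was -0.81, with 2 positive and 8 negative. S100a8, in this list, fell by 3.17 (adjusted p = 0.013 by limma). That call was lost without library KO_267 (0.066) or WT OVA library 9 (0.051), and with no filter on low values (0.067).

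Of 12 markers of mucus-secreting goblet cells, 6 rose and none fell in DJ-1 KO OVA against WT OVA, where 5.93% of all genes rose, and 2 to 6 rose with 1 library left out. Against WT PBS 12 rose, where 4.07% of all genes rose, and 10 to 11 with 1 library left out. Of the 6 not called against WT OVA, Tff2, a secreted trefoil peptide, averaged 191 FPKM in DJ-1 KO OVA and 301 FPKM in WT OVA, with a log2 difference of -0.60 (adjusted p = 0.285). Clca1, which averaged 1382 FPKM in DJ-1 KO OVA and 362 FPKM in WT OVA and gave most of the DJ-1 KO OVA sum, was also not called (adjusted p = 0.0761). The summed level of the 12 was 2171, 1281 and 1829 FPKM in DJ-1 KO OVA, 1009.8, 285 and 928 in WT OVA and 102, 139 and 60.9 in WT PBS. WT OVA library 6 was the lowest WT OVA library here too. The part of goblet cell number in the Slc26a4 difference was not tested.

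Markers of ionocytes, the rare airway cells rich in CFTR, were near 0 where they define the cell. Foxi1, their defining transcription factor, had 5 reads in DJ-1 KO OVA library KO_263 and 0 in the other 8 libraries, and Ascl3 had 0 to 3 reads. The 12 listed genes summed to 70.3 to 197 FPKM in DJ-1 KO OVA, 115 to 134 in WT OVA and 66.0 to 93.9 in WT PBS, of which Atp6v0d2, which macrophages also express, gave 47.9 to 176 FPKM in DJ-1 KO OVA, 55.0 to 96.6 in WT OVA and 27.2 to 51.3 in WT PBS. Of 7 tested, none rose and 3 fell between DJ-1 KO OVA and WT OVA, beside 5.93% and 8.24% of all genes. With 1 library left out 0 to 1 rose and 0 to 2 fell. Atp6v1c2 and Stap1, among those that fell, were not called with equal FPKM sums (adjusted p = 0.10 and 0.053 by limma).

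The thyroid, which lies near the airway and expresses pendrin, was also checked. Pax8, a transcription factor of thyroid cells, had at most 2 reads in any library. Tg, the thyroglobulin gene, was at 0.625 to 0.772 FPKM in DJ-1 KO OVA, 0.246 to 0.434 in WT OVA and 0.242 to 0.568 in WT PBS, and the adjusted p was 0.10 between DJ-1 KO OVA and WT OVA. Each DJ-1 KO OVA value of Tg was above each wild-type value. None of the 3 tested thyroid markers was called in any comparison of the main fit. In DJ-1 KO OVA against WT OVA 14.2% of all genes were called. With equal FPKM sums Tg was called in DJ-1 KO OVA against WT OVA, with a log2 difference of 0.82 (adjusted p = 0.033 by limma). The part of thyroid tissue in the Slc26a4 difference was not tested. Oesophagus and squamous markers summed to 84.8, 7.69 and 5.64 FPKM in WT OVA libraries 5, 6 and 9. They summed to 4.14 to 5.50 FPKM in DJ-1 KO OVA and 4.99 to 9.16 in WT PBS. Endothelial markers summed to 25.0, 185 and 60.4 FPKM in KO_263, KO_266 and KO_267, 112 to 169 in WT OVA and 124 to 189 in WT PBS. The part of uneven tissue content in the member differences was not tested.

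The genes whose values moved most like those of Slc26a4 over the 9 libraries were Muc5ac, Capn9, Scin, Fcgbp, Fer1l6, Inhba, Il13 and Mmp19. Likeness was the mean absolute difference between the log2(FPKM + 0.5) values of both genes, each centred on its own mean, among 11701 genes with a mean of at least 1 FPKM. It was 0.465 for Muc5ac, a gel-forming mucin, 0.510 for Capn9, a calpain protease, 0.532 for Scin, an actin-severing protein, and 0.563 for Fcgbp, a mucus protein. For Il13, the type 2 cytokine, it was 0.674, and the median over all candidates was 1.93. A gene with the same value in all 9 libraries would score 1.92, so that median is near the score of no change. A low score therefore needs a rise in DJ-1 KO OVA about as large as that of Slc26a4. Among the other members Ano1 came closest, at 1.39.

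Muc5ac was at 27.0, 13.5 and 29.2 FPKM in DJ-1 KO OVA, at 4.46, 0.556 and 3.85 in WT OVA and at 0.257, 0.154 and 0.215 in WT PBS. Fcgbp was at 71.3, 56.0 and 68.4 FPKM in DJ-1 KO OVA, at 19.6, 3.13 and 11.7 in WT OVA and at 0.874, 1.21 and 1.00 in WT PBS. Each of the 8 was lowest, within WT OVA, in library 6, as Slc26a4 was. Unlike Slc26a4, both mucus genes were higher in each WT OVA library than in each WT PBS library. These genes were picked for their likeness, so their levels are given here without a test. Il13, Muc5ac and Fcgbp are also in the other gene lists and were tested there, so those tests are not independent of the likeness.

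**Figure D4:**
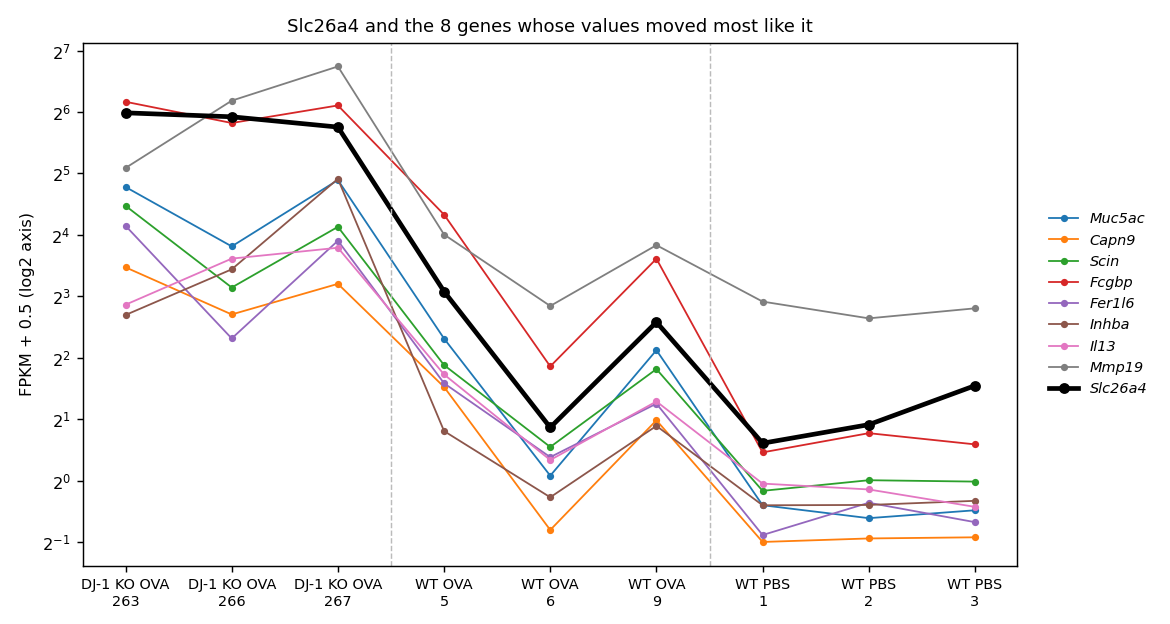
FPKM + 0.5 on a log2 axis in the 9 libraries, DJ-1 KO OVA left, for Slc26a4 (thick black) and the 8 genes most like it; lines join the values of a gene and libraries have no order within a group. Within WT OVA all 9 genes are lowest in library 6, where Slc26a4 is at 1.32 FPKM.

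Cytokines, receptors and regulators around the IL-13 and IL-17 inputs to pendrin, inhibitors among them, were examined as a list of 13 genes. In DJ-1 KO OVA against WT OVA, 3 rose and none fell, where 5.93% of all genes rose and 8.24% fell. The median difference was 0.38 against 0 over all genes. With equal FPKM sums 6 rose, where 4432 of 17716 genes rose. Il13 was at 6.78, 11.7 and 13.3 FPKM in DJ-1 KO OVA, at 2.81, 0.761 and 1.94 in WT OVA and at 0.466, 0.404 and 0.243 in WT PBS, and its 3 groups did not overlap. It rose by 2.31 on the log2 scale against WT OVA (adjusted p = 0.00719 by limma), in all 15 alternatives. Il13ra2, the decoy receptor for IL-13, rose by 1.23 (adjusted p = 0.0182), lost without DJ-1 KO OVA library KO_267 (0.069) or WT OVA library 5 (0.055) or 6 (0.065). Socs1, an inhibitor of cytokine signalling, rose by 1.01 (adjusted p = 0.0365), lost without DJ-1 KO OVA library KO_263 (0.085) or WT OVA library 5 (0.081), 6 (0.11) or 9 (0.082), with no filter on low values (0.084) and in the fit of 2 groups (0.075). Il13ra1, a chain of the signalling receptor, averaged 18.9 ± 3.8 FPKM in DJ-1 KO OVA and 27.2 ± 2.9 FPKM in WT OVA (SD, n = 3 each) and was not called (adjusted p = 0.12). Il17a was at 1.27, 3.33 and 3.53 FPKM in DJ-1 KO OVA, at 2.05, 1.75 and 3.34 in WT OVA and at 2.72, 3.08 and 1.81 in WT PBS, with overlapping groups.

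Among 14 tested chloride channels and channel regulators other than the members, 2 rose and 1 fell in DJ-1 KO OVA against WT OVA. Over all genes 5.93% rose and 8.24% fell there. The median difference of the 14 was 0.43. With equal FPKM sums 6 of them rose and none fell, where 4432 of 17716 genes rose and 602 fell. Clcn5, an endosomal chloride exchanger, rose by 1.22 (adjusted p = 0.020), lost without DJ-1 KO OVA library KO_267 (0.075) or WT OVA library 5 (0.067), 6 (0.060) or 9 (0.060), and with no filter on low values (0.062). Ano6, the scramblase relative of Ano1, rose by 0.88 (adjusted p = 0.0496), and Best1, the chloride channel bestrophin, fell by 0.59 (adjusted p = 0.0489). Both were lost when any of DJ-1 KO OVA libraries KO_263 and KO_267 or WT OVA libraries 5, 6 and 9 was left out, and each passed in 5 of 15 alternatives. Best1 had an adjusted p of 0.80 with equal FPKM sums. Clca1, the secreted regulator of ANO1, was at 1772, 901 and 1472 FPKM in DJ-1 KO OVA, at 543, 56.4 and 487 in WT OVA and at 1.50, 12.9 and 3.82 in WT PBS. Its 3 groups did not overlap, with an adjusted p of 0.0761 between DJ-1 KO OVA and WT OVA.

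Of 20 tested pumps, cotransporters and potassium channels of the basolateral membrane, 2 rose and 3 fell, beside 5.93% and 8.24% of all genes. The median difference was 0.08. Kcnn4, the calcium-activated potassium channel that sustains the drive for chloride secretion and also serves T cells, was at 10.4, 14.03 and 13.5 FPKM in DJ-1 KO OVA, at 5.66, 2.58 and 4.15 in WT OVA and at 3.52, 3.47 and 4.04 in WT PBS. It rose by 1.55 on the log2 scale against WT OVA (adjusted p = 0.00852 by limma) in all 15 alternatives. Fxyd4, a regulator of the sodium pump, rose by 1.82 (adjusted p = 0.0275), lost without WT OVA library 6 (0.084) or 9 (0.078), with no filter on low values (0.083) and in the fit of 2 groups (0.061). Kcne2, a beta subunit of the epithelial potassium channel, fell by 1.84 (adjusted p = 0.0194) and Fxyd1, another sodium pump regulator, by 0.99 (adjusted p = 0.0183). Without DJ-1 KO OVA library KO_267 the adjusted p was 0.083 for Kcne2 and 0.080 for Fxyd1, and without WT OVA library 5, 6 or 9 it was 0.051, 0.067 and 0.056 for Kcne2 and 0.063, 0.066 and 0.054 for Fxyd1. Kcne2 was also lost with no filter on low values (0.059). With equal FPKM sums 7 genes of this list rose and none fell, where 4432 of 17716 genes rose and 602 fell.

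Sodium channel proteases and regulators had 1 rise and 1 fall among 16 tested, beside 5.93% and 8.24% of all genes. The median difference was 0.05. With equal FPKM sums 4 rose and none fell, where 4432 of 17716 genes rose and 602 fell. Prss8, the channel-activating protease prostasin, was at 12.0, 13.99 and 8.15 FPKM in DJ-1 KO OVA, at 31.9, 42.4 and 23.1 in WT OVA and at 33.7, 22.4 and 22.6 in WT PBS. Each DJ-1 KO OVA library was below the 6 wild-type libraries, as for Scnn1a. Prss8 fell by 1.46 (adjusted p = 0.0153), lost without DJ-1 KO OVA library KO_267 (0.067) or WT OVA library 5 (0.053) or 6 (0.058), and with equal FPKM sums (0.055). Hsd11b2, which protects the mineralocorticoid receptor from glucocorticoids, rose by 0.79 (adjusted p = 0.0452), and lost the call when any 1 of the 6 libraries was left out (0.060 to 0.14), and passed in 5 of 14 alternatives.

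Water channels had 1 fall among 7 tested, where 8.24% of all genes fell. Their median difference was -0.02, or 0.19 with equal FPKM sums. Aqp5, the apical water channel of alveolar type 1 and gland cells, was at 27.4, 34.5 and 14.2 FPKM in DJ-1 KO OVA, at 74.4, 89.5 and 58.2 in WT OVA and at 66.5, 73.1 and 67.9 in WT PBS. The DJ-1 KO OVA values were well below the others. Aqp5 fell by 1.59 (adjusted p = 0.0149), lost without WT OVA library 5 (0.052) or 6 (0.058). Aqp5 is itself an alveolar type 1 marker, and of 9 tested markers of those cells 3 fell, Aqp5 among them. With 1 library left out 0 to 4 fell. Ager (adjusted p = 0.0491 by limma) and Hopx (0.0473), which also fell, were not called with equal FPKM sums (0.14 and 0.16). The 10 markers summed to 178 to 388 FPKM in DJ-1 KO OVA, 492 to 636 in WT OVA and 384 to 652 in WT PBS. The part of alveolar content in the Aqp5 fall was not tested.

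Of 16 tested CFTR partners and kinases of chloride transport, 2 rose and 1 fell, beside 5.93% and 8.24% of all genes. The median difference was 0.28. The kinases Wnk1 and Stk39, which act in sequence to phosphorylate NKCC1, rose by 1.21 (adjusted p = 0.0471) and by 0.69 (adjusted p = 0.0442), and the scaffold gene Slc9a3r2 fell by 1.17 (adjusted p = 0.0454). Each of the 3 was lost when any of DJ-1 KO OVA libraries KO_263 and KO_267 or WT OVA libraries 5, 6 and 9 was left out, with adjusted p-values of 0.096 to 0.17. Wnk1 and Stk39 passed in 8 of 15 alternatives and Slc9a3r2 in 7. With equal FPKM sums 8 rose and none fell, where 4432 of 17716 genes rose and 602 fell.

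None of 13 tested anion exchange and bicarbonate genes passed in DJ-1 KO OVA against WT OVA, beside 14.2% of all genes. The median difference was 0.25. With equal FPKM sums 4 rose, where 4432 of 17716 genes rose. Car2, the cytosolic carbonic anhydrase, was at 28.6, 27.6 and 22.0 FPKM in DJ-1 KO OVA, at 16.1, 14.6 and 20.6 in WT OVA and at 11.0, 17.6 and 14.01 in WT PBS, with an adjusted p of 0.0881 against WT OVA, or 0.015 with equal FPKM sums. Against WT PBS Car2 rose by 0.87 (adjusted p = 0.0393), lost without DJ-1 KO OVA library KO_263 (0.086) or KO_267 (0.073) or WT PBS library 1 (0.16) or 3 (0.079), with no filter on low values (0.073) and in the fit of 2 groups (0.091). Of 11 genes for thiocyanate oxidation, which makes an antimicrobial product from the anion pendrin carries, 4 were tested and none was called. Lpo, airway lactoperoxidase, had at most 2 reads in any library, and the peroxide source Duox2 was at 0.181 to 0.417 FPKM in DJ-1 KO OVA, 0.0375 to 0.135 in WT OVA and 0.101 to 0.152 in WT PBS. In WT OVA against WT PBS none of the genes of these 8 lists was called. Clca1 had a log2 difference of 5.66 there (adjusted p = 0.286), with groups that did not overlap, and was called without WT OVA library 6, at 6.72 (adjusted p = 0.0046).

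**Figure D5:**
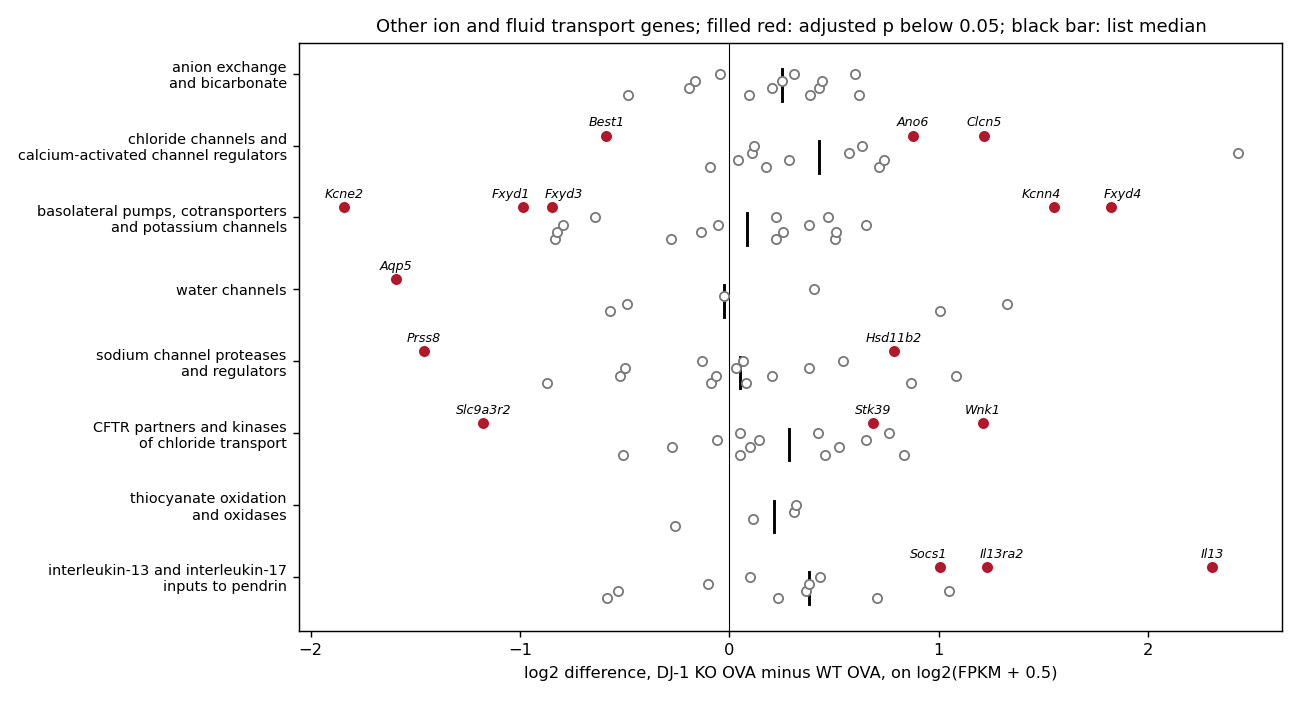
Difference of group means, DJ-1 KO OVA minus WT OVA, on log2(FPKM + 0.5) for the tested genes of 8 lists (points, 1 per gene); filled red points with names passed an adjusted p of 0.05, and black bars are list medians. Il13 at 2.31, Fxyd4 at 1.82 and Kcnn4 at 1.55 lie furthest right among the named genes, and Kcne2 at -1.84 lies furthest left.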

How the data were processed

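The authors deposited FPKM per gene for 9 libraries made from total RNA. Per the submitters' processing notes they used Trimmomatic, HISAT2 and HTSeq with GRCm38.p6. Their versions and settings are not stated in the labels. FPKM multiplied by gene length gave whole reads, within 0.01 reads, for 100% of the values above 0, and the library sizes the authors divided by equalled median-of-ratios sizes. Read totals and scaling are therefore known. Replicate pairs differed by 36.7 to 254 in chi-square per degree of freedom, so none was a repeat.

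Values were tested as log2(FPKM + 0.5) for genes with a mean of at least 0.2 FPKM, in a single limma-trend fit over 9 libraries (limma 3.58.1, R 4.3.3) with 6 residual degrees of freedom, two-sided, Benjamini-Hochberg adjusted. The test was checked on simulated reads with the same relative spread for every gene and no outlying library. That check does not measure error in these data. An exact permutation test of 3 against 3 cannot go below p = 0.1. The labels do not tie libraries to animals, so p-values reflect spread that may be technical. Means carry the SD over 3 libraries.

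Named genes were the members, up to 4 tested genes with the smallest p of each pathway list, marker genes, Park7, and the 8 genes most like Slc26a4. Clca1, Tff2, Hhip, Il17a, Il13ra1, Tg, Pax8, Lpo, Duox2, Foxi1, Ascl3 and the flanking genes were named after their values were seen. The members, lists and tests were chosen with earlier results of these data known. Some genes of the lists are not reported here and were left out of the lists' counts. Alternatives changed the pseudocount (0.1 or 1), the filter (none, or a mean of at least 1 FPKM), the scaling, the variance model, the groups fitted and the libraries. Promoters are RefSeq windows of GRCm38.p6. Slc12a2's was not used here.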

Additional observations from a re-analysis of the deposited data

How the results depend on the processing

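Of 360 alternative values of single members, 318 kept their direction and side of the threshold and 19 changed sign, none of a called difference. The sign changes in DJ-1 KO OVA against WT OVA were 0.27 for Slc26a9 with equal FPKM sums, Cftr at -0.14 without library KO_263, -0.023 without WT OVA replicate 5 and -0.038 without WT OVA replicate 9 (range with a library left out -0.14 to 0.22), and Slc12a2 at -0.12 without KO_263 and -0.011 without 5 (range -0.12 to 0.62). In DJ-1 KO OVA against WT PBS Slc12a2 was at 0.19 with equal FPKM sums, 0.34 without library KO_266 and 0.16 without WT PBS replicate 3 (range -0.40 to 0.34). In WT OVA against WT PBS equal FPKM sums gave -0.063 for Cftr, -0.28 for Scnn1a and -0.12 for Scnn1g, quantile normalization -0.047 for Scnn1a, leaving out WT OVA replicate 6 -0.027 for Cftr, -0.13 for Scnn1a and -0.065 for Scnn1g, leaving out WT PBS replicate 2 -0.19 for Scnn1a, and leaving out WT OVA replicate 9 or WT PBS replicate 1 0.43 and 0.27 for Scnn1b. The ranges with a library left out were -0.027 to 0.37 for Cftr, -0.19 to 0.21 for Scnn1a, -0.40 to 0.43 for Scnn1b and -0.065 to 0.48 for Scnn1g. The cause was not tested.

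Members called in DJ-1 KO OVA against WT OVA came to 1 with no filter and 1 in a fit of the 2 groups alone, and to 1 to 3 with a library left out. Genes called there came to 645 with no filter, 1131 in the fit of 2 groups and 286 to 5694 with a library left out, the highest without library KO_266. Equal FPKM sums called 5034 genes, 4432 higher and 602 lower, against 1051 and 1459 of 2510. In DJ-1 KO OVA against WT PBS 1 member was called with no filter and 1 to 3 with a library left out. Genes called there came to 669 with no filter, 700 in the fit of 2 groups and 436 to 3897 with a library left out. Equal FPKM sums gave 968 higher and 432 lower, against 721 and 792. In WT OVA against WT PBS the single called gene became 0 with a pseudocount of 0.1, a mean of at least 1 FPKM, equal FPKM sums, quantile normalization, limma-voom or 2 groups, 2 with no filter, and 0 to 14 with a library left out. No member was called there in any setting. No paired analysis was possible because the groups share no replicate numbers.

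Counting error bears most on Atp12a, Foxi1, Ascl3 and the other genes with a few reads. With 3 libraries a group, differences near the threshold, such as those of Ano1 and Scnn1a, turn on single libraries.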
